A study of Mus musculus with 19 samples.

Results

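The 10 genes described here mark T cells and cytotoxic lymphocytes. They comprise 3 chains of the T cell receptor complex (Cd3d, Cd3e and Cd3g), the coreceptors Cd4 and Cd8a, the cytotoxic granule genes Nkg7, Gzma, Gzmb and Prf1, and Foxp3, the master transcription factor of regulatory T cells. They were chosen by name and cell type, and no threshold on the measured values entered the choice. All 10 were among the 22180 genes that had a probe set of their own on the arrays. RNA was measured on Affymetrix arrays in 7 angiosarcomas, malignant tumors of endothelial cells, and in 4 aortas, 4 sternocleidomastoid muscles and 4 quadriceps femoris muscles. The tumors had the genotype aP2-Cre/+;DicerFlox/-, in which Cre recombinase under the aP2 promoter acts on a floxed Dicer allele opposite a null allele, and the normal tissues were wild type. All mice were of mixed C57Bl/6 and 129X1/SvJ strain. The aP2 promoter drives the gene of a fatty acid binding protein that is made in adipocytes and also in some endothelial cells and macrophages, so Cre need not act in a single cell type. The null Dicer allele is in every cell of a tumor-bearing mouse, its lymphocytes included, so genotype and tissue changed together in each tumor comparison and cannot be told apart. The labels used here give no age, sex or batch.

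T cells recognise peptides on MHC molecules through a receptor whose signal is passed on by the CD3 chains. CD8 binds MHC class I and marks most killer T cells, while CD4 binds MHC class II and marks helper and regulatory T cells. Killer T cells and natural killer (NK) cells kill by releasing granules that hold perforin, which forms pores, and granzymes, proteases that enter the target cell. Tumors, large vessels and muscle hold such lymphocytes in varying numbers among far more abundant cells, and small lymph nodes, which are rich in T and B cells, lie in the fat near large vessels and muscles.

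Values are log2 intensities as deposited, so that a difference of 1 is a doubling. Array medians over all probe sets lay between 5.35 and 5.48. The labels do not say that samples came from separate animals, so the p-values measure only the spread between these samples, and the number of arrays limits the precision. In a bulk sample, fewer cells of a type and less RNA per cell cannot be told apart. The 6 endothelial markers were all higher in tumors than in aortas and than in muscles, 5 of 6 smooth muscle markers were lower in tumors than in aortas, and all 6 skeletal muscle markers were lower in tumors than in muscles, as the tissue labels state. Skeletal muscle signal was uneven, however. The mean of these 6 markers was 9.54, 10.97, 7.27, 9.22, 5.32, 5.41 and 10.12 in tumors 1 to 7. It was 8.19, 5.66, 8.04 and 5.97 in aortas 1 to 4, against 12.5 to 12.7 in muscles. The part of muscle tissue in the results for the 10 genes was not tested. Dicer1 averaged 8.53 in tumors, 8.23 in aortas, 8.42 in sternocleidomastoid and 8.76 in quadriceps. It did not pass the test in tumors against aortas (difference 0.29 ± 0.12 SE, limma adjusted p = 0.0714) or against muscles (-0.06 ± 0.10, limma adjusted p = 0.629). The sources used here do not place its probes relative to the floxed part, so this checks nothing about the genotype.

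The 4 aortas did not form a uniform group for lymphoid genes, which bears on all that follows. Glycam1, a mucin of the high endothelial venules through which lymphocytes enter lymph nodes, had 4.17, 4.37 and 6.21 as lowest, median and highest values in tumors, against 11.4, 10.9, 4.58 and 7.22 in aortas 1 to 4. In the muscles it lay between 4.46 and 5.17. Aortas 1 and 2 thus stood far above every other array, and aorta 3 was in the range of the tumors. The mean of 9 B cell genes was 4.87 to 6.05 in tumors, against 7.20, 7.02, 5.28 and 5.93 in aortas 1 to 4 and 4.93 to 5.25 in muscles. The mean of 5 genes of lymph node stroma and vessels was 5.51 to 6.19 in tumors, against 7.95, 7.68, 5.82 and 6.60 in aortas 1 to 4 and 5.36 to 5.67 in muscles, with aortas 1 and 2 again the highest arrays. The calls of the 10 genes and of the related lists against aortas are therefore given with all arrays and without aortas 1 and 2, a choice made after seeing the data and based on these same genes.

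Fat differed between the tissues as well. The mean of 6 brown adipocyte genes was 4.82 to 8.93 in tumors, against 11.2 to 11.8 in aortas, 9.60 to 10.6 in sternocleidomastoid and 7.87 to 9.21 in quadriceps. The 4 aortas were alike in this mean, including aortas 1 and 2 at 11.3 and 11.2. All 6 genes fell in tumors against aortas (median -5.02), and all 6 fell also without aortas 1 and 2, beside 17.5% and 14.2% of all genes. Tumors 4 and 5 stood apart from the other tumors, at 8.93 and 8.85 against 4.82 to 6.03, and their Ucp1, the uncoupling protein gene of brown fat, was 11.1 and 10.5, against 4.39 to 4.81 in the other 5. The part of fat in the results for the 10 genes was not tested.

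Signal was low for several of the 10 genes. As a rough yardstick for signal near background, 1394 olfactory and vomeronasal receptor genes, which these tissues are not known to use widely, reached 5.20 to 5.44 at their 95th percentile, depending on the array. Gzma, Gzmb and Foxp3 were above that value in 0 of 19 arrays. Cd3d was above it in 1 array, Cd3g and Cd4 in 6, Cd8a in 8 and Cd3e in 13. Nkg7 and Prf1 were above it in all 19. Probe sets differ in affinity, so these counts do not rank the genes by abundance.

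**Figure D1:**
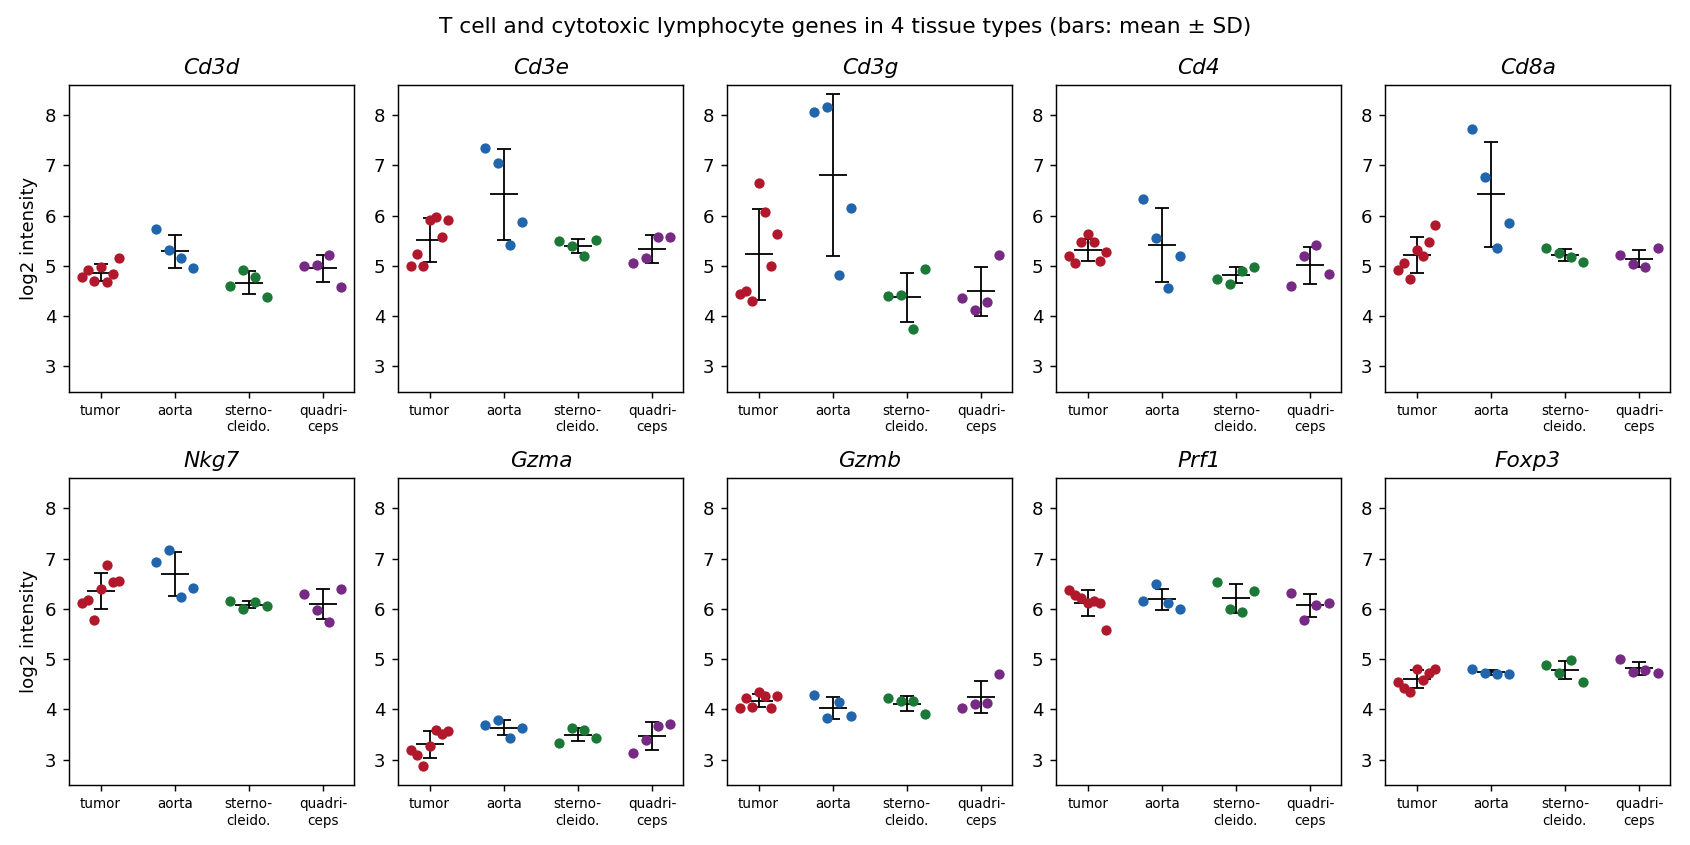
Log2 intensity (vertical axes) of each of the 10 genes in the tumors, aortas, sternocleidomastoid muscles and quadriceps muscles; points are arrays and bars the mean ± SD. For Cd3e, Cd3g and Cd8a the 2 highest points are aortas, up to 8.17 for Cd3g, while Gzma, Gzmb and Foxp3 stay below 5.1 in all 19 arrays.

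The 3 CD3 genes lie side by side on chromosome 9, in the order Cd3g, Cd3d, Cd3e, with 0 annotated genes between Cd3g and Cd3d and 0 between Cd3d and Cd3e (RefSeq, GRCm38.p6). CD3 gamma, delta and epsilon pair with one another and are needed for the T cell receptor to reach the cell surface. Because the 3 genes fell together in tumors against aortas, their promoter windows are shown, from 250 bases before to 50 bases after the annotated start site. They were read from RefSeq sequence at chr9:44981536-44981835 on the plus strand for Cd3d, chr9:45009562-45009861 on the minus strand for Cd3e and chr9:44980382-44980681 on the minus strand for Cd3g. Capitals mark the core AGGAAG on either strand (CTTCCT when read from the other), which ETS family factors of lymphocytes, endothelium and many other cells can bind.
Cd3d: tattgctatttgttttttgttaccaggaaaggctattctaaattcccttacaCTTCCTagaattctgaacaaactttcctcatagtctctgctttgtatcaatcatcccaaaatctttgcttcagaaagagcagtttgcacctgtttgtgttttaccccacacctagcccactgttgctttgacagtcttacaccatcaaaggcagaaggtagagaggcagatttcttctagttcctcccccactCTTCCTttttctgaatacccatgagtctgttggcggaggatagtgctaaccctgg
Cd3e: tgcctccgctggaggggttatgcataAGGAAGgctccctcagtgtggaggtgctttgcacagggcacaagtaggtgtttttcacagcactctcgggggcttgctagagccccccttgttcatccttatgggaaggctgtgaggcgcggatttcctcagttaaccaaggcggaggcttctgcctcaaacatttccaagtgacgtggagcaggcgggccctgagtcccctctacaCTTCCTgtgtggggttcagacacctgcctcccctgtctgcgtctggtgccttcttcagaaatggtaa
Cd3g: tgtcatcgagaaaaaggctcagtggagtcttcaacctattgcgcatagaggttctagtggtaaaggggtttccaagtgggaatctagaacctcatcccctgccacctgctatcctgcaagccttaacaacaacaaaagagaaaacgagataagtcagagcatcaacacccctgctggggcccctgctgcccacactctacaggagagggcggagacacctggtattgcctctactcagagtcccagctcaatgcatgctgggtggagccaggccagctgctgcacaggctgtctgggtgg
The Cd3d and Cd3e windows each held 2 matches and the Cd3g window held 0. Such a match is common, being present in 35.4% of 32851 promoter windows of the same length. The letters TGTGGT, which RUNX factors of T cells can bind, were searched on both strands and occurred in none of these 3 windows, against 16.8% of all windows. Over the members, 9 of 10 genes matched a RefSeq window (Foxp3 with a second one, Cd4 with none), and 5 of the 10 windows held the ETS letters and 4 the RUNX letters. These are descriptions of sequence, and nothing about factor binding was measured.

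Of these chains, Cd3g varied most among arrays. It had 4.30, 4.99 and 6.65 as lowest, median and highest values in tumors, against 8.07, 8.17, 4.83 and 6.15 in aortas 1 to 4. In sternocleidomastoid it had 4.39, 4.41, 3.75 and 4.94, and in quadriceps 4.36, 4.12, 4.29 and 5.22. Aortas 1 and 2 were the highest arrays, tumors 4 and 5 (6.65 and 6.07) were near aorta 4, and aorta 3 fell below the tumor median, so tumors and aortas overlapped. Cd3e had 4.99, 5.58 and 5.97 as lowest, median and highest values in tumors, against 7.34, 7.04, 5.42 and 5.88 in the aortas, 5.49, 5.40, 5.20 and 5.51 in sternocleidomastoid and 5.05, 5.16, 5.57 and 5.57 in quadriceps. Again aortas 1 and 2 alone exceeded every tumor. Cd3d spanned a narrower range, with 4.68, 4.85 and 5.15 in tumors, against 5.74, 5.31, 5.15 and 4.96 in the aortas, 4.60, 4.92, 4.77 and 4.38 in sternocleidomastoid and 4.99, 5.02, 5.21 and 4.58 in quadriceps. Its highest tumor, tumor 7, reached the level of aorta 3.

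Cd8a, the alpha chain of CD8, lies on chromosome 6. It had 4.75, 5.20 and 5.81 as lowest, median and highest values in tumors, against 7.73, 6.77, 5.35 and 5.86 in aortas 1 to 4. In sternocleidomastoid it had 5.35, 5.26, 5.18 and 5.08, and in quadriceps 5.21, 5.03, 4.99 and 5.35. Only aorta 3 lay inside the range of the tumors, and aorta 4 lay just above tumor 7. Cd8b1, which encodes the partner chain CD8 beta and is not one of the 10, had 5.16 to 5.94 in tumors, against 7.97, 7.26, 5.97 and 6.07 in aortas 1 to 4. Cd4, also on chromosome 6, had 5.06, 5.27 and 5.64 as lowest, median and highest values in tumors, against 6.34, 5.55, 4.56 and 5.21 in the aortas, 4.73, 4.64, 4.91 and 4.98 in sternocleidomastoid and 4.59, 5.19, 5.41 and 4.85 in quadriceps. For Cd4 a single aorta, aorta 1, exceeded the tumors, and aorta 3 was the lowest of the 19 arrays. Macrophages also express CD4 in humans and rats.

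The cytotoxic genes are given next. Nkg7, which encodes a granule membrane protein of NK cells and killer T cells (chromosome 7), had 5.77, 6.40 and 6.87 as lowest, median and highest values in tumors, against 6.94, 7.18, 6.24 and 6.41 in the aortas. In sternocleidomastoid it had 6.15, 6.01, 6.13 and 6.05, and in quadriceps 6.30, 5.98, 5.74 and 6.39. Aortas 1 and 2 were again the highest arrays, with tumor 5 close behind. Prf1, the perforin gene (chromosome 10), had 5.57, 6.17 and 6.37 in tumors, against 6.15, 6.49, 6.12 and 6.00 in the aortas, 6.54, 5.99, 5.94 and 6.36 in sternocleidomastoid and 6.32, 5.77, 6.07 and 6.12 in quadriceps. No tissue stood out for Prf1, whose highest array was sternocleidomastoid 1 and whose lowest was tumor 7.

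Gzma and Gzmb, the genes of granzymes A and B (chromosomes 13 and 14), were dim in every tissue. Gzma had 2.88, 3.28 and 3.60 as lowest, median and highest values in tumors, against 3.68, 3.79, 3.43 and 3.63 in the aortas and 3.13 to 3.71 in the muscles. Gzmb had 4.03, 4.22 and 4.35 in tumors, against 4.29, 3.83, 4.14 and 3.87 in the aortas and 3.90 to 4.71 in the muscles, the highest array being quadriceps 4. Foxp3, on chromosome X, had 4.35, 4.59 and 4.81 in tumors, against 4.80, 4.73, 4.71 and 4.70 in the aortas and 4.55 to 5.01 in the muscles. The ranges of these 3 genes overlapped among all tissues.

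In tumors against aortas, Cd3d, Cd3e, Cd3g and Cd8a fell and none of the 10 genes rose. Cd8a averaged 5.22 ± 0.36 (SD, n = 7) in tumors and 6.43 ± 1.05 (SD, n = 4) in aortas, a difference of -1.21 ± 0.30 SE (2.31-fold higher in aortas, limma adjusted p = 0.00346). Cd3g averaged 5.23 ± 0.91 in tumors and 6.80 ± 1.61 in aortas, a difference of -1.58 ± 0.55 SE (2.98-fold higher in aortas, limma adjusted p = 0.0308). Cd3e differed by -0.91 ± 0.29 SE (limma adjusted p = 0.0201) and Cd3d by -0.42 ± 0.15 SE (limma adjusted p = 0.0281). The count of 4 of 10 stands beside 17.5% of all genes that were lower and 18.6% that were higher in tumors (36.2% in either direction), and in no member did the groups fail to overlap (11.5% of all genes lay wholly lower and 12.2% wholly higher). At an unadjusted p under 0.05, limma gave 5 of the 10 as lower and 0 as higher, beside 43.4% of all genes in either direction. The median difference of the 10 genes was -0.34, against -0.02 over all genes.

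The 6 others did not pass. Cd4 differed by -0.10 ± 0.23 SE (95% interval -0.58 to 0.39), Nkg7 by -0.35 ± 0.19 SE (-0.75 to 0.06) and Gzma by -0.33 ± 0.14 SE (-0.62 to -0.04, limma adjusted p = 0.0712). Gzmb differed by 0.14 ± 0.13 SE (-0.12 to 0.41), Prf1 by -0.07 ± 0.15 SE (-0.39 to 0.24) and Foxp3 by -0.13 ± 0.10 SE (-0.35 to 0.08). These intervals include 0 for all but Gzma.

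All 4 calls were lost without aortas 1 and 2. Then 0 of 10 genes passed limma's test, beside 14.2% of all genes lower and 14.3% higher. At an unadjusted limma p under 0.05 it was also 0 of 10, for which no share of all genes was taken. Cd8a then differed by -0.39 ± 0.21 SE (limma adjusted p = 0.193) and Cd3g by -0.26 ± 0.54 SE (limma adjusted p = 0.776). Cd3e differed by -0.14 ± 0.25 SE and Cd3d by -0.19 ± 0.16 SE (limma adjusted p = 0.746 and 0.439), while Cd4 was 0.43 ± 0.21 SE higher in tumors without passing (limma adjusted p = 0.14). Leaving out aorta 1 alone, or aorta 2 alone, left Cd8a as the single gene that passed, at -0.78 and -1.10. With the arrays of tumors and aortas alone, Cd3e and Cd3g did not pass (limma adjusted p = 0.0707 and 0.0885), and Cd3g was also lost without tumor 1, 2 or 3 (limma adjusted p of 0.0533 to 0.0584). The calls of the CD3 genes and Cd8a thus depended on aortas 1 and 2, which also had the highest Glycam1 and B cell signal. Those aortas were the highest arrays for these same genes, and leaving them out left 2 aortas. The loss of the calls therefore says nothing about the source of the difference, which was not tested. The tumors and the remaining 2 aortas were not shown to be alike either, since the interval for Cd3g without aortas 1 and 2 ran from -1.40 to 0.88.

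**Figure D2:**
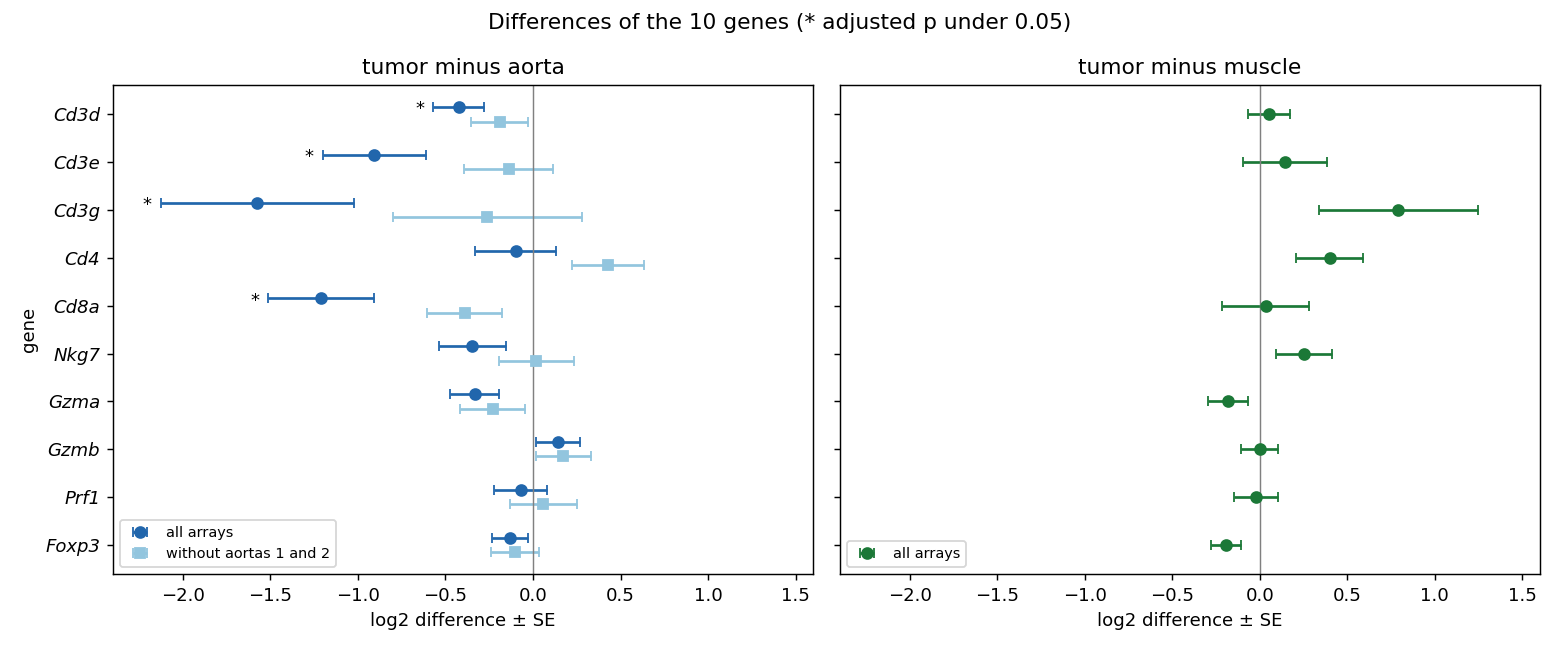
Log2 difference ± SE (horizontal axes) of each of the 10 genes, left for tumors minus aortas with all arrays (circles) and without aortas 1 and 2 (squares), right for tumors minus muscles; asterisks mark an adjusted p under 0.05. On the left the circles of Cd3d, Cd3e, Cd3g and Cd8a carry an asterisk and no square does, and on the right no point does.

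B cell genes also fell in tumors against aortas. Of 9 B cell genes, 8 fell and 0 rose (median difference -0.95), beside 17.5% and 18.6% of all genes. Without aortas 1 and 2, 0 of 9 passed, but those arrays were singled out by these genes, so this count adds nothing to the choice. Cd79b, a signaling chain of the B cell receptor, had 5.40 to 7.37 in tumors, against 8.98, 8.31, 6.15 and 6.89 in the aortas. Cr2, the complement receptor of B cells and follicular dendritic cells, had 3.94 to 4.98 in tumors, against 6.97, 7.30, 4.35 and 5.50 in the aortas. Glycam1 fell by 3.89 ± 0.85 SE in tumors against aortas (limma adjusted p = 0.00121). With aortas 1 and 2 left out, its difference was -1.28 ± 0.52 SE and did not pass (limma adjusted p = 0.0807). With all arrays it was the 1 of 5 lymph node genes to pass, a share near the 17.5% of all genes that were lower. The part of lymphoid tissue in the aorta samples in the result was not tested.

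**Figure D3:**
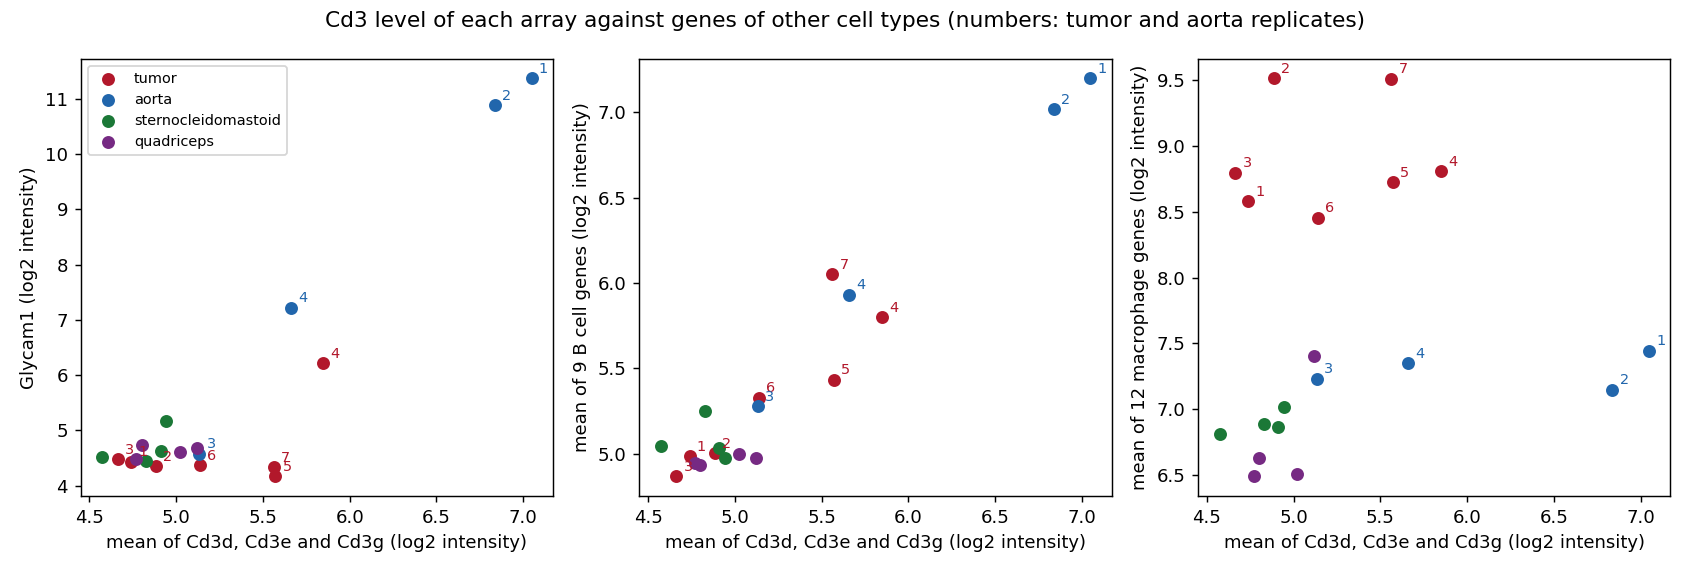
Mean of Cd3d, Cd3e and Cd3g in each array (horizontal axes, log2 intensity) against Glycam1, the mean of 9 B cell genes and the mean of 12 macrophage genes (vertical axes, log2 intensity); points are arrays, colored by tissue, with replicate numbers for tumors and aortas. Aortas 1 and 2 are high for CD3, Glycam1 (11.4 and 10.9) and B cell genes, while the tumors lie above all other arrays for macrophage genes (8.45 to 9.51).

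In tumors against muscles, none of the 10 genes passed in either direction, in a comparison where 25.3% of all genes were higher and 25.7% lower in tumors (51% in either direction). In this limma fit 1 of the 10 was higher and 1 lower at an unadjusted p under 0.05, beside 55.8% of all genes in either direction. Brighter genes passed more often, at 39.8% higher and 34.1% lower among the 12539 genes kept when dim ones were left out. Cd3d, Cd4, Gzma, Gzmb and Foxp3 had every tissue mean below the lowest array median of 5.83. The shares over all genes thus do not show that the 10 genes were unusually unchanged. Cd4 averaged 5.32 ± 0.22 (SD, n = 7) in tumors, 4.82 ± 0.16 in sternocleidomastoid and 5.01 ± 0.36 in quadriceps (SD, n = 4 each). Its difference from the muscle mean was 0.40 ± 0.19 SE (limma adjusted p = 0.089). Foxp3 differed by -0.19 ± 0.08 SE (limma adjusted p = 0.0649). The widest interval was that of Cd3g, at 0.79 ± 0.45 SE with a 95% interval of -0.16 to 1.74. For Cd8a the interval was -0.49 to 0.56, for Cd3e -0.36 to 0.65, for Gzmb -0.22 to 0.22 and for Prf1 -0.28 to 0.24. The median difference of the 10 genes was 0.04, against -0.04 over all genes. The tumors' groups overlapped with the muscles for each of the 10 genes, beside 14.6% of all genes wholly higher and 12.7% wholly lower. With arrays centred on housekeeping genes Gzma, Gzmb, Prf1 and Foxp3 passed as lower in tumors, when 58% of all genes did.

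Aortas against muscles shared their arrays with the preceding comparisons. There Cd3g rose by 2.37 ± 0.54 SE (limma adjusted p = 0.00183), Cd8a by 1.25 ± 0.29 SE (limma adjusted p = 0.00257) and Cd3e by 1.05 ± 0.29 SE (limma adjusted p = 0.00742) in aortas. Nkg7 rose by 0.60 ± 0.19 SE and Cd3d by 0.48 ± 0.14 SE (limma adjusted p = 0.0188 and 0.0134). These were 5 of 10 genes, with 0 lower, beside 17% of all genes higher and 15.3% lower in aortas (32.3% in either direction, and 40.5% at an unadjusted p under 0.05). Without aortas 1 and 2 the count was 0 of 10 by limma, beside 11% of all genes higher and 10.6% lower. It was also 0 at an unadjusted limma p under 0.05, for which no share of all genes was taken. Without aorta 1 alone, 2 genes passed.

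None of the 10 genes passed between the muscles. In sternocleidomastoid against quadriceps limma called 0 of 10, beside 0.433% of all genes in either direction, and 0 at an unadjusted p under 0.05, beside 7.06%. Differences ran from -0.28 ± 0.16 SE for Cd3d to 0.14 ± 0.17 SE for Prf1. The interval for Cd3g, -1.42 to 1.18, shows how little 4 arrays against 4 could resolve for that gene.

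By order of group means, Cd3g ran tumor below aorta and above both muscles (5.23, 6.80, 4.37 in sternocleidomastoid and 4.50 in quadriceps), and of these neighbours the tumors and the muscles did not differ beyond the test. Cd8a means were 5.22 in tumors, 6.43 in aortas, 5.22 in sternocleidomastoid and 5.14 in quadriceps, so that 3 of the 4 tissues lay within 0.1 of each other. Cd3e means were 5.51, 6.42, 5.40 and 5.34 in the same order of tissues. Prf1 means were 6.12, 6.19, 6.21 and 6.07, a spread smaller than the SD within any one tissue.

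Among the tumors, the mean of the 3 CD3 genes was 4.74, 4.89, 4.66, 5.85, 5.57, 5.14 and 5.56 in tumors 1 to 7. Tumors 4 to 7 were higher than tumors 1 to 3, and the labels give no reason to divide them so. Tumors 4 and 5, with the highest values, are also the tumors with the high brown adipocyte signal. Tumor 7, however, was nearly level with tumor 5 (5.56 against 5.57) at a brown adipocyte mean of 5.44. Tumor 4 also had the highest Glycam1 of the tumors, at 6.21. The part of fat or lymphoid tissue in these values was not tested. Each of the 7 other genes was set against this mean across the 7 tumors. Gzmb had r = 0.829 (rho = 0.75), Foxp3 r = 0.812 (rho = 0.786) and Nkg7 r = 0.765 (rho = 0.786), each with an adjusted exact permutation p of 0.0992 for r and 0.1028 for rho over the 7 relations. Cd8a had r = 0.70 (rho = 0.714), Gzma r = 0.69 (rho = 0.75), Cd4 r = 0.535 (rho = 0.536) and Prf1 r = -0.562 (rho = -0.714), with adjusted exact permutation p between 0.1278 and 0.2024 for r and between 0.1028 and 0.2357 for rho. None passed, and the 2-sided tests had raw p of 0.0361 at the lowest. Gzmb and Foxp3, with the highest r, were above the background yardstick in 0 of 19 arrays. Their tumor values spanned only 4.03 to 4.35 and 4.35 to 4.81. Without tumors 3 and 4, the farthest from the median, r was 0.911 for Nkg7, 0.895 for Gzma, 0.73 for Cd4, 0.72 for Cd8a, 0.681 for Gzmb, 0.63 for Foxp3 and -0.733 for Prf1. These came from 5 tumors, and none passed (adjusted exact permutation p of 0.1169 at the lowest).

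Tumors 5 to 7 carry title codes that follow those of the normal tissues, while tumors 1 to 4 precede them, and the labels call this no batch. With tumors 5 to 7 alone, 0 of 10 genes passed limma's test against aortas, beside 15.6% of all genes higher and 13.8% lower. At an unadjusted limma p under 0.05, 1 was lower, for which no share of all genes was taken. In that subset Nkg7 alone rose against muscles, by 0.56 (limma adjusted p = 0.019), beside 23.7% of all genes higher and 20.5% lower. With tumors 1 to 4 alone, 6 genes fell against aortas, Nkg7 (-0.58) and Gzma (-0.52) joining the 4 above, beside 18.5% of all genes lower and 19.8% higher. Against muscles Gzma (-0.37) and Foxp3 (-0.27) fell in that subset, beside 24.3% of all genes lower and 24.4% higher.

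The genes most like the CD3 mean over all 19 arrays were B cell and lymphocyte genes. The highest Pearson r was that of Cd79a (0.949), a B cell receptor chain, followed by Ms4a1 (0.945), which encodes CD20, Btla (0.942), an inhibitory receptor of B and T cells, Fcmr (0.938), the IgM Fc receptor, and Cr2 (0.934). The 19 arrays include aortas 1 and 2, in which each of these 5 genes was higher than in aortas 3 and 4. Cd79a had 8.26 and 8.16 there, against 5.71 and 6.58 in aortas 3 and 4. The genes most like the mean of Nkg7, Gzma, Gzmb and Prf1 were Mgst2 (0.81), Mgst1 (0.792), Zfp872 (0.78), Adam33 (0.776) and Cebpa (0.772). None of these 5 is a lymphocyte gene: the Mgst genes encode microsomal glutathione S-transferases, and Cebpa encodes a transcription factor of adipocytes, liver and myeloid cells. These are descriptions over arrays that share tissue differences.

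The wider T cell receptor list held 17 measured genes of receptor signaling and the T cell surface. In tumors against aortas 2 rose and 5 fell (median -0.25), or 11.8% and 29.4%, beside 18.6% and 17.5% of all genes. Thy1 had 8.72, 9.24 and 9.84 as lowest, median and highest values in tumors, against 7.36, 6.95, 6.83 and 6.74 in aortas, and rose by 2.25 ± 0.17 SE (limma adjusted p = 1.26e-08). Thy1 marks mouse T cells and also fibroblasts and some endothelium. Lcp2, an adaptor of T cells that myeloid cells and platelets use as well, rose by 2.02 ± 0.32 SE (limma adjusted p = 5.83e-05). In contrast Cd8b1 fell by 1.18 ± 0.29 SE and Themis, an adaptor of thymocytes and T cells, by 0.62 ± 0.20 SE (limma adjusted p = 0.00338 and 0.0206). Without aortas 1 and 2, 2 rose and 0 fell, beside 14.3% and 14.2% of all genes. Those shares of all genes hold for each list below when aortas 1 and 2 are left out.

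Against muscles, 3 genes of this list rose and 1 fell (median 0.04), or 17.6% and 5.88%, beside 25.3% and 25.7% of all genes. Lcp2 rose by 2.82 ± 0.27 SE, Thy1 by 2.19 ± 0.14 SE and Lat, the membrane scaffold of receptor signaling, by 0.86 ± 0.34 SE (limma adjusted p = 3.05e-08, 1.89e-10 and 0.0402). Cd28, the costimulatory receptor, fell by 0.94 ± 0.11 SE (limma adjusted p = 3.34e-07). Its values were 5.13, 5.37 and 5.63 as lowest, median and highest in tumors, against 6.10 to 6.54 in the muscles, which did not overlap. In aortas 1 to 4 Cd28 had 5.90, 5.79, 5.20 and 5.41, all below the muscles, although aortas 1 and 2 had the highest CD3 signal. Its level thus did not follow that of the CD3 genes across tissues.

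Of 23 further NK cell and cytotoxic genes, 0 rose and 1 fell in tumors against aortas (median -0.09), and 3 rose and 4 fell against muscles (median 0.08). These shares were below those of all genes, of which 18.6% rose and 17.5% fell against aortas and 25.3% and 25.7% against muscles. Gzmm, the granzyme M gene, was the one lower than in aortas (-0.34 ± 0.12 SE, limma adjusted p = 0.0372) and was also lower than in muscles (-0.64 ± 0.10 SE, limma adjusted p = 2.64e-05). Its call against aortas was lost without aortas 1 and 2 (-0.30 ± 0.17 SE, limma adjusted p = 0.21), and 0 of 23 genes passed. Against muscles Tbx21, the T-bet gene, fell by 0.46 ± 0.10 SE. Serpinb9, a granzyme B inhibitor made by cytotoxic cells and by other cells too, rose by 1.24 ± 0.18 SE, and Ccl5, a chemokine of activated T cells and other cells, by 0.88 ± 0.33 SE (limma adjusted p = 0.000691, 1.06e-05 and 0.0337 for these 3 genes).

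The list of regulatory T cell and checkpoint genes held 18 genes, of which 4 rose and 2 fell against aortas and 6 rose and 2 fell against muscles (medians 0.07 and 0.13). Against aortas that was 22.2% and 11.1%, beside 18.6% and 17.5% of all genes. Against muscles it was 33.3% and 11.1%, beside 25.3% and 25.7%. The shares that rose were thus not far from those of all genes. Lrrc32, which encodes the TGF-beta docking protein GARP of regulatory T cells, platelets and endothelium, rose by 2.37 ± 0.16 SE against aortas and by 3.11 ± 0.13 SE against muscles. Tnfrsf9, the costimulatory receptor 4-1BB, had 7.58, 8.58, 7.79, 7.62, 6.39, 5.16 and 8.75 in tumors 1 to 7, against 5.28 to 5.68 in aortas and 5.23 to 5.82 in muscles. Tumor 6 was the lowest array of all for this gene, and the other 6 tumors were above every normal tissue. It rose by 1.97 ± 0.46 SE against aortas (limma adjusted p = 0.00208) and by 1.87 ± 0.38 SE against muscles (limma adjusted p = 0.00033). Havcr2, the TIM-3 gene of T cells and myeloid cells, rose by 0.93 ± 0.25 SE against aortas, and Entpd1, the CD39 gene of regulatory T cells and endothelium, by 1.47 ± 0.14 SE against muscles. Ikzf2, the Helios gene, fell by 1.49 ± 0.21 SE against aortas and by 2.16 ± 0.18 SE against muscles. Of the 18, 2 rose (Lrrc32 and Tnfrsf9) and 2 fell against aortas once aortas 1 and 2 were left out, and Havcr2 did not pass (0.90 ± 0.33 SE, limma adjusted p = 0.0534). Foxp3 itself passed in neither comparison.

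Among 13 genes of naive, memory and resident T cells, 3 rose and 3 fell against aortas and 7 rose and 1 fell against muscles (medians 0.02 and 0.56). Against aortas that was 23.1% each way, beside 18.6% and 17.5% of all genes. Against muscles it was 53.8% and 7.69%, beside 25.3% and 25.7%. Cd44, an adhesion receptor of memory T cells and many other cells, rose by 1.54 ± 0.28 SE and 2.04 ± 0.23 SE against aortas and muscles. S1pr1, the egress receptor that endothelium also makes, rose by 1.40 ± 0.20 SE and 1.91 ± 0.17 SE, and Klf2, a factor of naive T cells and of endothelium, by 1.04 ± 0.14 SE and 1.26 ± 0.12 SE. Il7r, the interleukin-7 receptor, rose by 1.87 ± 0.32 SE against muscles. Ikzf3, the Aiolos gene of B cells and lymphocytes, fell by 1.03 ± 0.36 SE against aortas. Without aortas 1 and 2, 4 of the 13 rose and 0 fell against the remaining aortas.

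Of 14 T cell chemokine and cytokine genes, 1 rose and 1 fell against aortas, and 4 rose and 1 fell against muscles (medians -0.02 and 0.18). Against aortas that was 7.14% each way, beside 18.6% and 17.5% of all genes. Against muscles it was 28.6% and 7.14%, beside 25.3% and 25.7%. Cxcl16, a membrane-bound ligand of CXCR6 on T cells, had 9.39, 9.52 and 10.28 as lowest, median and highest values in tumors, against 7.58 to 7.86 in aortas and 6.77 to 7.23 in muscles. The groups did not overlap, and it rose by 1.96 ± 0.15 SE against aortas and by 2.71 ± 0.12 SE against muscles (limma adjusted p = 9.25e-09 and 1.05e-12). Ccl22, a chemokine of dendritic cells that attracts regulatory T cells, fell by 0.63 ± 0.23 SE against aortas, a call lost without aortas 1 and 2 (-0.32 ± 0.28 SE, limma adjusted p = 0.459). In that setting 1 of the 14 still rose (Cxcl16) and 1 fell, Il12b (-0.32 ± 0.11 SE, limma adjusted p = 0.0372), which was not called with all arrays. Against muscles Cxcl10 rose by 0.61 ± 0.16 SE and Il18 by 0.55 ± 0.14 SE, and Il12a fell by 1.32 ± 0.12 SE.

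For MHC class I presentation, which displays peptides to CD8 T cells, 10 of 11 genes rose and 0 fell against muscles (median 0.75), whereas 1 rose and 1 fell against aortas (median 0.05). Of all genes, 25.3% rose and 25.7% fell against muscles, and 18.6% and 17.5% against aortas. The peptide transporter genes Tap1 and Tap2 rose by 1.29 ± 0.15 SE and 0.94 ± 0.16 SE against muscles, the class I heavy chain gene H2-K1 by 1.04 ± 0.25 SE and the chaperone gene Calr by 0.91 ± 0.06 SE. Against aortas Calr rose by 0.44 ± 0.07 SE and Tapbp, the tapasin gene, fell by 0.43 ± 0.16 SE. Of the 11, 2 rose and 0 fell against aortas 3 and 4 alone, Tapbp being at -0.43 ± 0.21 SE (limma adjusted p = 0.16) and Tap1 passing as well (0.64 ± 0.23 SE, limma adjusted p = 0.0462).

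Pan-leukocyte and macrophage genes were set beside the 10, without a test of the difference between lists. Of 12 pan-leukocyte genes, 8 rose and 0 fell in tumors against aortas (median 0.84), and 12 of 12 rose against muscles (median 1.67). Beside this and the other lists named here, 18.6% of all genes rose and 17.5% fell against aortas. Against muscles the shares were 25.3% and 25.7%. Ptprc, the CD45 gene of all leukocytes, had 7.85, 8.43 and 9.35 as lowest, median and highest values in tumors, against 8.42, 8.51, 5.77 and 7.04 in aortas 1 to 4 and 5.07 to 6.32 in muscles. The tumors thus lay around aortas 1 and 2 and above every other normal array, and Ptprc rose by 2.66 ± 0.34 SE against muscles (limma adjusted p = 1.48e-06). All 12 macrophage genes rose in both comparisons (medians 1.59 and 2.19), for example Mpeg1, a pore-forming protein gene of macrophages, by 2.21 ± 0.30 SE and 3.01 ± 0.25 SE. Without aortas 1 and 2, 11 of 12 pan-leukocyte and 12 of 12 macrophage genes rose against the remaining aortas, beside 14.3% of all genes. The aortas left out had the higher pan-leukocyte means, 7.55 and 7.41 against 6.32 and 6.64 in aortas 3 and 4. The larger pan-leukocyte count therefore follows from the choice of arrays and adds nothing to it. Of the 9 B cell genes, 0 rose and 0 fell against muscles, as for the 10. Of 9 mast cell genes, 2 rose and 0 fell against aortas and 2 rose and 1 fell against muscles (medians -0.11 and -0.20). Without aortas 1 and 2, 1 mast cell gene rose and 0 fell against the remaining aortas.

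**Figure D4:**
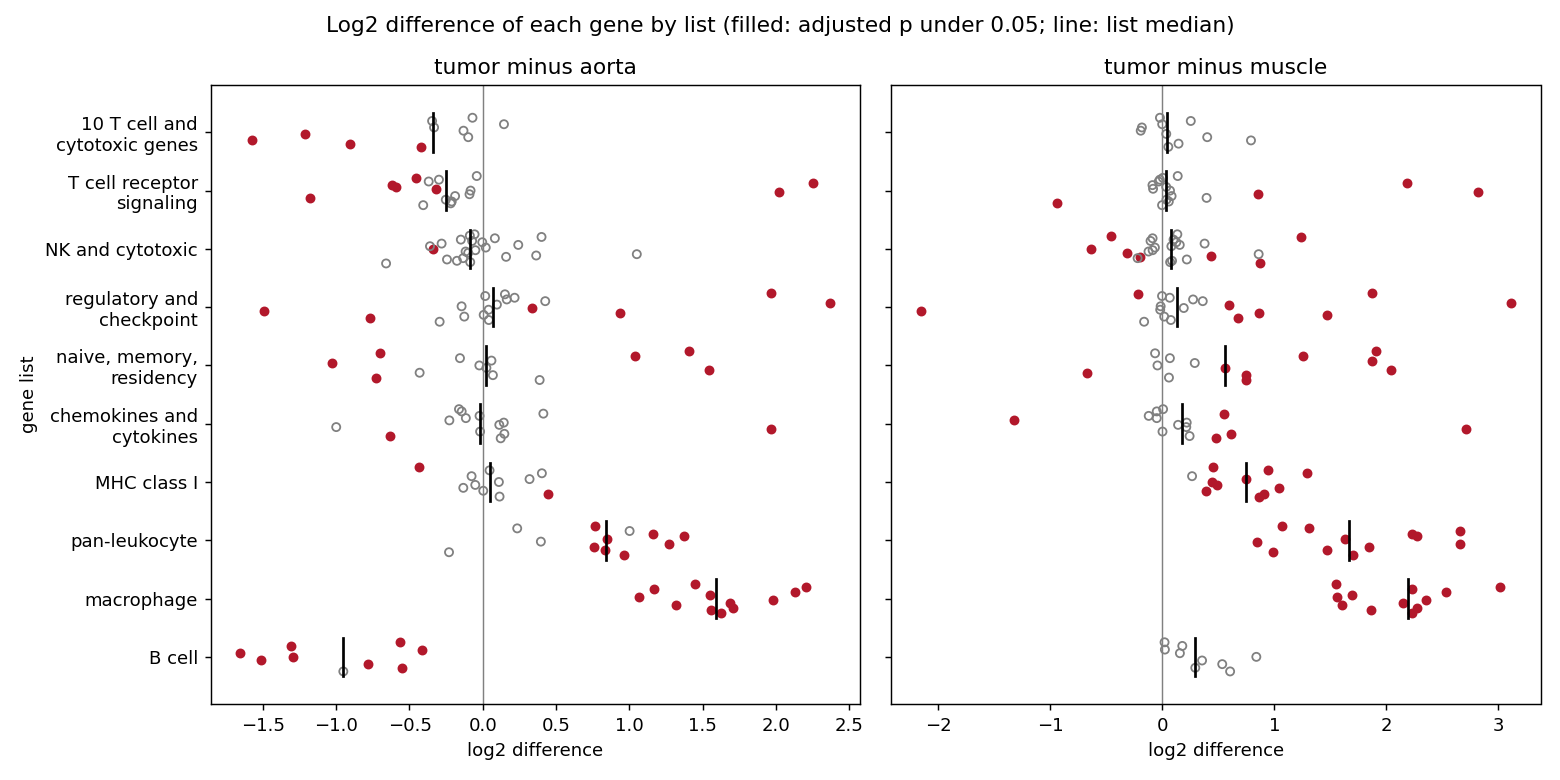
Log2 difference (horizontal axes) of each gene in 10 lists, for tumors minus aortas on the left and tumors minus muscles on the right; filled points passed an adjusted p of 0.05 and vertical lines are list medians. The 10 T cell and cytotoxic genes have medians of -0.34 and 0.04, while the macrophage genes lie wholly to the right of 0, with medians of 1.59 and 2.19.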

How the data were processed

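The deposited table holds 1 log2 intensity per probe set and array. Its values ran from 1.60 to 13.8 with no negative value. Partek 6.6 is named in the submitters' processing notes, while the sources used here state neither the normalization nor the genome build. Of 41345 probe sets, 23521 carried 1 gene symbol in the platform annotation, 1814 several and 16010 none. Single-symbol probe sets were used, the one with the highest mean for each of 1082 genes with more than 1, which left 22180 genes. Each of the 10 members had 1 such probe set (Prf1 and Foxp3 also occur on probe sets with several symbols, not used).

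The model had a mean per tissue over 19 arrays, in limma 3.58.1 under R 4.3.3 (two-sided moderated test), with Benjamini-Hochberg adjustment over all genes and a threshold of 0.05. Muscle is the mean of both muscle means. "Rose", "fell" and "passed" refer to that threshold, and 1 SE follows each difference. In simulated data over 22180 genes, the tumor and aorta comparison recovered 60% of changes of 0.5 log2 units, 92% of 1 and 100% of 2, with 9 false calls. These shares are over 50 changed genes of each size. They need not hold for a gene as variable as Cd3g, whose SE against aortas was 0.55. Relations across tumors used exact permutation tests (scipy 1.17.1).

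The members, the gene lists and the rule for named genes (in each list, the 2 to 4 genes with the largest difference past the threshold; the 5 genes most correlated with the CD3 and with the cytotoxic mean, leaving out Riken, Gm-numbered and predicted names; markers that bear on a member) were chosen with earlier results of these data known. Alternatives were other scalings, filters, variance models, thresholds, tumor subsets and single muscles, and each array left out in turn.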

Additional observations from a re-analysis of the deposited data

Results flagged for a closer look

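Each gene in each tissue was checked for a single array far from the others of its group, by the size of the gap relative to the group's range, and 2 of 40 groups had one. Chance alone gives about 1 in 20 groups. Gzmb had 4.71 in quadriceps 4, against 4.13 in the next highest quadriceps array. Quadriceps 4 also had the highest quadriceps mean of brown adipocyte genes (9.21, against 7.87 to 7.90) and of macrophage genes (7.41, against 6.49 to 6.63), whose part in the value was not tested. Prf1 had 5.57 in tumor 7, against 6.11 in the next lowest tumor.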

How the results depend on the processing

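In tumors against aortas, where 4 of 10 genes fell, other settings gave other counts, each set here beside the share of all genes lower. The count was 2 with the compared groups alone (15.3%), 1 at a threshold of 0.01 (13%) and 0 with tumors 5 to 7 alone (13.8%). It was also 0 without aortas 1 and 2 (14.2%), but 5 with housekeeping centring (22.6%, Gzma gained) and 6 with tumors 1 to 4 alone (18.5%). It was 1 to 5 with single arrays left out (15.5% to 18%), the 1 being without aorta 1 (16.2%) and without aorta 2 (16.1%). In tumors against muscles, where none passed, 1 gene rose with the compared groups alone (Cd4, limma adjusted p = 0.0133) and 1 with tumors 5 to 7 alone. Of all genes, 24.8% and 23.7% rose in these settings. In that comparison 1 gene fell with arrays centred on the median gene (Foxp3), beside 31.4% of all genes. With arrays centred on housekeeping genes 4 fell (Gzma, Gzmb, Prf1 and Foxp3), beside 58%, and with tumors 1 to 4 alone 2 fell, beside 24.3%. With single arrays left out 0 to 1 fell (Foxp3 without tumor 4, tumor 7 or sternocleidomastoid 4), beside 23.9% to 25.3%. In aortas against muscles, where 5 rose, 3 rose and 1 fell (Gzmb) with housekeeping centring, beside 10.5% and 26.5% of all genes. At a threshold of 0.01, 3 rose (12.3% of all genes), and without aortas 1 and 2, 0 rose (11%). With single arrays left out 2 to 6 rose (14.7% to 16.9%). Gzma fell against aortas without tumor 5 or tumor 7, Cd4 rose in aortas against muscles without aorta 3, and Nkg7 lost its call there without aorta 1 or aorta 2. Fewer samples, a stricter threshold or, with centring, a shift common to all genes of an array enter some of these by construction. For the others the cause was not tested.

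The housekeeping mean was 10.466 in tumors, 10.359 in aortas, 10.195 in sternocleidomastoid and 10.175 in quadriceps. Centring on it therefore lowered every gene in tumors relative to the other tissues by construction. The 9 housekeeping genes were not stable themselves, since 4 rose and 3 fell in tumors against muscles before centring. Housekeeping centring moved the median of all genes to -0.13 in tumors against aortas, to -0.32 in tumors against muscles and to -0.16 in aortas against muscles, against -0.02, -0.04 and 0.01. It changed the genes higher and lower to 3036 and 5020, to 3704 and 12869 (58% lower), and to 2333 and 5871, against 4131 and 3892, 5617 and 5691, and 3772 and 3396. Centring on the median gene gave 5160 higher and 6968 lower in tumors against muscles. Of the single genes' values under the alternatives, 798 were unchanged, 30 lost a call and 19 gained one, and no called difference changed sign. The 798 include values called in neither fit and the 7 relations across tumors taken again without tumors 3 and 4. The threshold of 0.01 is not counted here. With all arrays only 4 genes were called in tumors against aortas and 5 in aortas against muscles, so the 798 are no measure of how stable the calls were. No paired analysis was possible because the labels give the tissues no shared replicate numbers. Dim probe sets limit what can be seen of Gzma, Gzmb and Foxp3, and also of Cd3d, which was above the background yardstick in 1 array, an aorta. The setting with dim genes left out also left out Cd3d, so it cannot test that call.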
